A study of Mus musculus with 2 samples.

Results

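The 10 genes described here encode surface receptors by which muscle stem cells (satellite cells, MuSCs) hold on to their niche and to each other: Sdc4, Vcam1, Cd34, Cxcr4, Itgb1, Itga7, Cd44, Cdh15, Ncam1 and Cd47. They were taken by name, with earlier results of these data known, and all 10 were found by the mouse symbol of their Ensembl gene among the 20830 genes of one short-read table and the 26997 genes of the other. A satellite cell lies between the muscle fibre and its basal lamina. The integrin heterodimer α7β1 binds laminin in the lamina, M-cadherin (Cdh15) and N-CAM (Ncam1) join the cell to the fibre, and syndecan-4 (Sdc4) carries heparan sulfate chains that bind matrix proteins and growth factors. Several of these receptors serve to sort satellite cells from muscle. After injury the quiescent cell enlarges, leaves the niche and enters the cell cycle.

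The cells were YFP-sorted MuSCs of Pax7creERT2R26-eYFPfl/fl mice on a C57BL6 background. Tamoxifen was given at 3 months of age, so that the reporter marked cells in which the Pax7-driven, tamoxifen-dependent Cre had acted, and muscle was collected 2 weeks after the last dose. Quiescent cells came from uninjured muscle and activated cells from hindlimb muscle 72 h after injection of 1.2% barium chloride. Both went into 1 capture on the 10x Genomics 3′ platform, whose droplets were divided into a 10% and a 90% aliquot, and no label says from which muscle a cell came. Each aliquot has a short-read table of unique molecular identifiers (UMIs, each meant to stand for 1 captured mRNA molecule) per gene and cell barcode, and the 10% aliquot also has long-read UMIs per isoform.

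In place of a label, 2 depth classes were compared. The shallow class held barcodes of 3000 to 15000 UMIs with 0 UMIs of the cell cycle genes Rrm2, Top2a and Cdk1, and the deep class held barcodes of at least 20000 UMIs. The 10% table had 157 shallow barcodes with a median of 6729 UMIs and 79 deep barcodes with a median of 65499, and the 90% table had 1243 and 606 with medians of 4680 and 47106. Levels are the summed UMIs of a class scaled to its total (CPM), with exact Poisson 95% intervals. There was 1 capture and no replicate, so no test was possible between the classes, and the intervals cover counting error only. Fewer cells of a kind and less RNA per cell cannot be told apart in such sums.

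The 2 tables did not hold separate cells. Of the 1991 and 3001 listed barcodes, 634 were in both, and all 269 barcodes of at least 3000 UMIs in the 10% table were listed in the 90% table. There they held a median of 0.814 times as many UMIs (quartiles 0.801 and 0.857). The profile of such a barcode correlated with its own entry in the other table at a median Pearson r of 0.933 over 20506 genes, against 0.662 with the entries of other barcodes, and 263 of the 269 were closest to their own. Of the 157 and 79 classed barcodes of the 10% table, 144 and 76 were in the same class of the 90% table. For this reason a further set of values is given, the 90% table without any barcode of the 10% list, with 1000 shallow and 399 deep barcodes (the unshared barcodes).

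**Figure D1:**
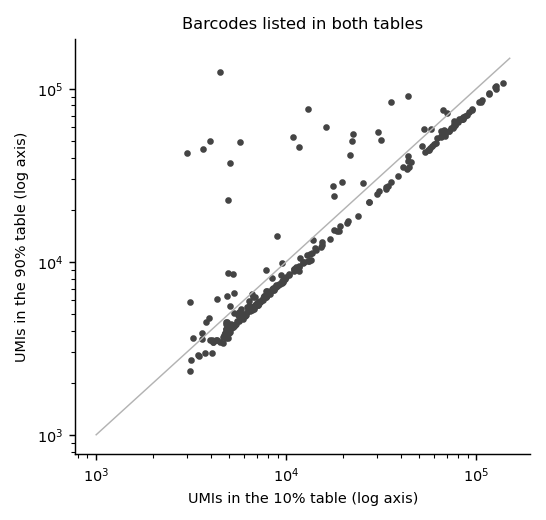
UMIs of each of the 269 barcodes with at least 3000 UMIs in the 10% table (x axis, log scale) against its UMIs in the 90% table (y axis, log scale), with the line of equal values in grey. Most points lie just below the line, at a median ratio of 0.814.

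The quiescence markers were higher in shallow barcodes. Their summed level was 498 CPM in shallow and 33.3 CPM in deep barcodes of the 10% table, and 596 against 25.3 CPM in the unshared barcodes. All 6 of them (Calcr, Spry1, Chrdl2, Heyl, Notch3 and Pax7) were at least 2-fold higher in shallow barcodes of both tables, and all 6 proliferation markers, such as Mki67, were at least 2-fold higher in deep ones. The second of these follows in part from the rule, since shallow barcodes were taken for having 0 UMIs of 3 cell cycle genes. Of 7 MuSC and myogenic markers, 5 (Pax7, Myf5, Myod1, Chodl and Calcr) were at least 2-fold higher in shallow barcodes of both tables, against 13.0% of all genes. Pax7 and Calcr are also among the 6 quiescence markers. The other 2, Des and Cdh15, were called in neither direction. Cdh15, itself a member, was 1.99 and 1.52 times as high in deep barcodes of the 10% and 90% tables. Among 5 differentiating markers Acta1 was called for shallow barcodes, and Myog and Mymk for deep ones, Myog not with the unshared barcodes. The shallow class was thus not marked by quiescence genes alone. Markers of other cell types were present in both classes. Summed immune markers stood at 347 and 223 CPM in shallow barcodes of the 10% table and of the unshared set, against 93.0 and 5.41 CPM in deep ones, and 4 of the 7 measured ones (Tyrobp, Cd74, Cd52 and Laptm5) were at least 2-fold higher in shallow barcodes of both tables. The pan-leukocyte gene Ptprc had 0 UMIs in these 2 shallow sets and 5 in the shallow class of the whole 90% table. UMIs of at least 3 of the 8 immune markers were in 1 of the 157 shallow barcodes of the 10% table and in 5 of the 1000 of the unshared set. Summed fibro-adipogenic markers were 288 and 398 CPM in shallow and 81.4 and 47.6 CPM in deep barcodes, with Pdgfra at 0 in both shallow sets. Of the 4 measured ones, Gsn alone was at least 2-fold higher in shallow barcodes of both tables. UMIs of at least 3 of the 6 fibro-adipogenic markers were in 0 of the 157 shallow barcodes of the 10% table. In the unshared set they were in 4 of the 1000. Schwann and glial markers were at 87.9 CPM in shallow and 2.35 CPM in deep barcodes of the 10% table, and at 7.15 and 1.73 CPM in the unshared ones. Tenocyte markers went the other way, at 0.897 and 13.1 CPM in the 10% table and 6.76 and 22.0 CPM in the unshared barcodes. Smooth muscle and pericyte markers were at 89.4 and 41.2 CPM, endothelial markers at 15.3 and 6.22 CPM and red cell markers at 0.596 and 1.68 CPM in shallow and deep unshared barcodes. In the 10% table these were at 85.2 and 78.4 CPM, 10.8 and 6.08 CPM, and 0 and 1.76 CPM. Without the barcodes that had UMIs of at least 3 markers of another cell type, the same 2 members were at least 2-fold higher in shallow barcodes and the same 1 in deep barcodes.

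Of the 9 members with at least 20 UMIs over both classes in each table, Sdc4 and Vcam1 were at least 2-fold higher in shallow barcodes of both tables. Among all 10072 genes with that many UMIs, 13.0% were called in this direction, and 2 of 9 is read against that share as no result about the list. Cd47 alone among the 9 was at least 2-fold higher in deep barcodes of both tables, a direction called for 24.7% of all genes. With the unshared barcodes in place of the whole 90% table, the same members were called, beside 12.7% and 24.1% of 10055 genes. The median log2 ratio of shallow over deep was -0.32 and -0.34 over all genes in the 10% and 90% tables, and 0.16 and -0.28 over the 9 members. The tenth member, Cxcr4, had too few UMIs in the 10% table.

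**Figure D2:**
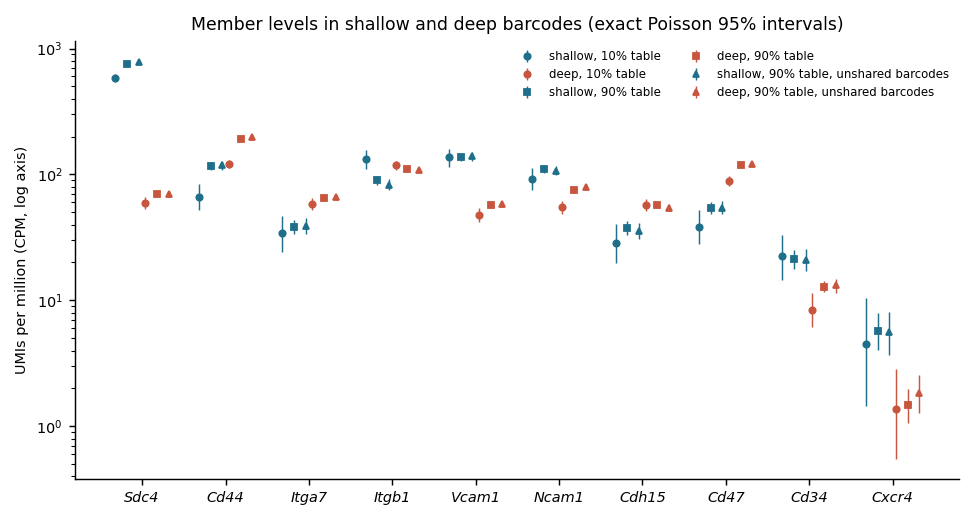
Levels of the 10 members in CPM (y axis, log scale) in shallow and deep barcodes of the 10% table, the 90% table and the 90% table without shared barcodes. Points are the levels of summed UMIs and bars exact Poisson 95% intervals. Sdc4 stands at 581 to 777 CPM in the shallow sets and 59.6 to 69.4 CPM in the deep sets.

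Sdc4 (ENSMUSG00000017009, chr2:164424247-164443887 of GRCm38, minus strand), the syndecan that helps integrins form focal adhesions, had the highest level of the 10 in shallow barcodes and the widest gap between the classes. Its level was 581 CPM (538 to 628) in shallow and 59.6 CPM (53.1 to 66.7) in deep barcodes of the 10% table. In the whole 90% table it was 755 CPM (734 to 777) and 69.4 CPM (66.4 to 72.4). The unshared barcodes gave 777 CPM (752 to 801) and 69.4 CPM (65.6 to 73.3). The ratio was thus 9.75 (8.50 to 11.2), 10.9 (10.3 to 11.5) and 11.2 (10.5 to 11.9) in the 3 sets, and no interval of a shallow set reached one of a deep set. The 250 bases before its RefSeq start (chr2:164443189-164443438, minus strand, RefSeq table on GRCm38.p6) are shown because no other member differed so much, with Cd47 (chr16:49855404-49855653, plus strand) as the member that differed most the other way. Capitals mark the GC box GGGCGG on either strand.
Sdc4 promoter: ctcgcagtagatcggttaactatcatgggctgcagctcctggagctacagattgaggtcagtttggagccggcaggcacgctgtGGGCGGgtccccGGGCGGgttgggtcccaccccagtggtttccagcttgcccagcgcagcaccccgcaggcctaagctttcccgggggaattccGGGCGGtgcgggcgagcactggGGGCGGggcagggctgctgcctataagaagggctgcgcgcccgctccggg
Cd47 promoter: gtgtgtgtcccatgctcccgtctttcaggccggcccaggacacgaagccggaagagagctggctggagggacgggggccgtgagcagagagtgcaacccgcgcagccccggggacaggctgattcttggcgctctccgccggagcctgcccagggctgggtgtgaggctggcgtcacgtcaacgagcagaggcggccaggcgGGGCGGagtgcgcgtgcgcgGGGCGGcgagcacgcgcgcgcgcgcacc
The box was found 4 times before Sdc4 and 2 times before Cd47, in 5 of the 7 members with a promoter in the table, and in 32.7% of all 32851 promoters. Neither the E-box CAGCTG nor the AP-1 motif TGACTCA was in any of the 7 windows on either strand, against 13.0% and 4.46% of all windows.

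With the same barcodes thinned at random to 3000 UMIs each, the ratio of Sdc4 was 12.1 (6.81 to 23.6) in the 10% and 12.1 (10.1 to 14.7) in the 90% table. In the 10% table this rests on 12 deep UMIs. Random thinning keeps the expected share of Sdc4 in each barcode, so these ratios cannot show whether the gap depends on depth. The gap of Sdc4 was smaller against cycling barcodes of the same depth. Barcodes of 3000 to 15000 UMIs with at least 2 UMIs of the 3 cell cycle genes together numbered 14 in the 10% table and 71 in the 90% table, and their Sdc4 level was 377 CPM (271 to 509) and 279.6 CPM (237 to 328). Shallow barcodes were 1.54 (1.13 to 2.16) and 2.70 (2.30 to 3.20) times as high as these. Within the shallow class Sdc4 was also lower at greater depth in the 90% table. The unshared barcodes held 984 CPM at 3000 to 5000 UMIs, 633 at 5000 to 8000 and 403 at 8000 to 15000, then 73.0, 69.4 and 65.3 CPM in the 3 deep strata. The 10% table gave 592, 676 and 475 CPM in the shallow strata. Barcodes under 500 UMIs, which were too shallow to be classed, had Sdc4 at 302 CPM (169 to 498) and 202 CPM (123 to 312), from 15 and 20 UMIs, so that their level lay between those of the classes.

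Vcam1 (ENSMUSG00000027962, chr3:116109949-116129688, minus strand), an immunoglobulin-type receptor whose ligand is the integrin α4β1, was at 136 CPM (116 to 160) in shallow and 47.7 CPM (41.9 to 54.0) in deep barcodes of the 10% table. The levels were 137 CPM (128 to 147) and 56.8 CPM (54.1 to 59.6) in the 90% table. They were 139 CPM (129 to 150) and 58.4 CPM (55.0 to 62.0) in the unshared barcodes. The shallow levels differed little among the 3 sets, and the ratio was 2.86 (2.32 to 3.52), 2.41 (2.22 to 2.62) and 2.38 (2.16 to 2.62). Against the depth-matched cycling barcodes it was 2.54 (1.14 to 7.02) and 1.85 (1.35 to 2.61), from 6 and 40 UMIs in the latter.

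Cd34 (ENSMUSG00000016494, chr1:194938819-194961279, plus strand), a sialomucin of quiescent satellite cells and of blood and vessel progenitors, lay well below Sdc4 and Vcam1. Shallow and deep barcodes held 22.4 CPM (14.5 to 33.1) and 8.43 CPM (6.10 to 11.4) in the 10% table, a ratio of 2.66 (1.56 to 4.45). In the 90% table they held 21.2 CPM (17.8 to 25.1) and 12.9 CPM (11.6 to 14.2), and the ratio of 1.65 (1.35 to 2.01) was below 2. The unshared barcodes gave 1.60 (1.26 to 2.02). Cd34 was thus higher in shallow barcodes in each set, and past the 2-fold limit in the 10% table alone.

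Cxcr4 (ENSMUSG00000045382, chr1:128588199-128592293, minus strand), the receptor of the chemokine Cxcl12, was near the limit of detection. The 10% table held 5 UMIs in shallow and 7 in deep barcodes, or 4.49 CPM (1.46 to 10.5) and 1.37 CPM (0.552 to 2.83), and the interval of the ratio of 3.27 ran from 0.818 to 11.96. The 90% table held 37 and 44 UMIs, or 5.73 CPM (4.04 to 7.90) and 1.47 CPM (1.07 to 1.98), a ratio of 3.89 (2.45 to 6.17). The unshared barcodes gave 3.02 (1.77 to 5.14). Barcodes of at least 1000 UMIs with at least 3 immune markers held 6 Cxcr4 UMIs in 5 barcodes of the 10% table and 15 in 16 barcodes of the 90% table, at 100.1 CPM (36.8 to 218) and 82.2 CPM (46.0 to 136). Without barcodes of other cell types 30 shallow UMIs remained of the 37 and the ratio in the 90% table was 3.32 (2.01 to 5.44).

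Cd47 (ENSMUSG00000055447, chr16:49800533-49915010, plus strand), the broadly expressed receptor of thrombospondin that also binds SIRPα on macrophages, went the other way. It was at 38.6 CPM (27.9 to 52.0) in shallow and 89.4 CPM (81.4 to 98.0) in deep barcodes of the 10% table. The 90% table gave 54.1 CPM (48.6 to 60.1) and 118 CPM (114 to 122). The unshared barcodes gave 54.4 CPM (48.2 to 61.3) and 121 CPM (116 to 126). Deep barcodes were 2.32 (1.69 to 3.25), 2.18 (1.95 to 2.44) and 2.22 (1.96 to 2.52) times as high in the 3 sets. In the cycling barcodes of 3000 to 15000 UMIs it was lower than in the deep class, with 3 UMIs or 26.9 CPM (5.55 to 78.6) in the 10% table and 30 UMIs or 55.5 CPM (37.5 to 79.3) in the 90% table. The ratio of shallow over these was 1.43 (0.459 to 7.23) and 0.974 (0.670 to 1.47), and both intervals held 1. The barcodes with immune markers held 184 CPM (91.6 to 328) and 219 CPM (157 to 298) of Cd47.

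Cd44 (ENSMUSG00000005087, chr2:102811141-102901665, minus strand), the hyaluronan receptor, was the member with the highest level in deep barcodes. It stood at 66.4 CPM (52.1 to 83.4) in shallow and 121 CPM (112 to 131) in deep barcodes of the 10% table, and at 117 CPM (108 to 125) and 191 CPM (186 to 196) in the 90% table. The unshared barcodes held 119 CPM (109 to 129) and 199.6 CPM (193 to 206). The level of each class was higher in the 90% than in the 10% table, with intervals apart, and deep over shallow was 1.83 (1.43 to 2.36), 1.64 (1.52 to 1.77) and 1.68 (1.54 to 1.84).

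The laminin receptor subunit Itga7 (ENSMUSG00000025348, chr10:128933818-128958282, plus strand) was also higher in deep barcodes, with 34.1 CPM (24.1 to 46.8) in shallow and 58.4 CPM (52.0 to 65.5) in deep barcodes of the 10% table. The 90% table gave 38.3 CPM (33.7 to 43.4) and 64.7 CPM (61.9 to 67.7), and the unshared barcodes 38.9 CPM (33.7 to 44.8) and 65.9 CPM (62.2 to 69.7). Deep over shallow was 1.71 (1.22 to 2.47), 1.69 (1.48 to 1.94) and 1.69 (1.45 to 1.98). Shallow over the cycling barcodes of the same depth was 0.761 (0.299 to 2.48) in the 10% table. It was 0.369 (0.275 to 0.503) in the 90% table, where Itga7 was thus higher in cycling barcodes. Those cycling barcodes held 5 and 56 UMIs of Itga7. Its partner Itgb1 (ENSMUSG00000025809, chr8:128685654-128733200, plus strand), the β1 subunit shared by many integrins, changed direction between the tables. Shallow and deep barcodes held 132 CPM (111 to 155) and 118 CPM (109 to 128) in the 10% table, where the intervals overlapped. They held 90.2 CPM (83.0 to 97.8) and 109.7 CPM (106 to 113) in the 90% table, and 83.1 CPM (75.3 to 91.4) and 109 CPM (104 to 114) in the unshared barcodes.

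M-cadherin, Cdh15 (ENSMUSG00000031962, chr8:122847966-122867397, plus strand), which binds like molecules on the fibre, was just under the 2-fold limit in the 10% table. Its level was 28.7 CPM (19.6 to 40.5) in shallow and 57.3 CPM (50.9 to 64.2) in deep barcodes there, and deep over shallow was 1.99 (1.38 to 2.97). In the 90% table it was 37.5 CPM (32.9 to 42.5) and 57.1 CPM (54.5 to 59.9), a ratio of 1.52 (1.33 to 1.75), with 1.53 (1.30 to 1.80) in the unshared barcodes. Ncam1 (ENSMUSG00000039542, chr9:49502136-49798925, minus strand), which also carries polysialic acid in developing muscle, had more UMIs per total in shallow barcodes. Short reads do not tell its isoforms apart, and a noncoding isoform is described with the long reads. Ncam1 was at 92.4 CPM (75.4 to 112) and 54.7 CPM (48.5 to 61.5) in the 10% table. The 90% table gave 110.04 CPM (102 to 118) and 75.4 CPM (72.3 to 78.6), and the unshared barcodes 107 CPM (98.3 to 117) and 79.6 CPM (75.6 to 83.8). Shallow over deep was 1.69 (1.33 to 2.12), 1.46 (1.34 to 1.59) and 1.35 (1.22 to 1.49). Against the cycling barcodes of the same depth the ratio was 1.47 (0.690 to 3.75) in the 10% and 0.849 (0.663 to 1.10) in the 90% table, and both intervals held 1.

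Because a deep barcode offers more chances to catch a UMI, the share of barcodes with a member is given after each was thinned at random to 3000 UMIs. Before thinning, Sdc4 had a UMI in 82.3% of the unshared shallow and 84.7% of the unshared deep barcodes. At 3000 UMIs the shares were 72.5% (69.6 to 75.2, exact binomial) and 16.5% (13.0 to 20.6). In the 10% table they were 68.2% (60.3 to 75.4) and 12.7% (6.24 to 22.0). The highest thinned count of Sdc4 in 1 barcode was 31 in the unshared shallow and 3 in the unshared deep barcodes. Vcam1 was present in 24.7% (22.1 to 27.5) of shallow and 15.5% (12.1 to 19.5) of deep unshared barcodes, and Ncam1 in 22.8% (20.2 to 25.5) and 20.6% (16.7 to 24.9), whose intervals overlapped.

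Of the members higher in deep barcodes, each was also found in more of the unshared ones at equal depth. Cd44 was in 23.6% (21.0 to 26.4) of shallow and 42.1% (37.2 to 47.1) of deep unshared barcodes, and Cd47 in 13.2% (11.2 to 15.5) and 31.3% (26.8 to 36.1). Itga7 gave 9.40% (7.66 to 11.4) and 17.0% (13.5 to 21.1), and Cdh15 7.60% (6.03 to 9.42) and 17.5% (13.9 to 21.6). In the 10% table Cd47 was in 6.37% (3.10 to 11.4) and 20.3% (12.04 to 30.8), with intervals apart. The intervals overlapped there for Cd44 at 16.6% and 27.8%, Itga7 at 8.28% and 19.0%, and Cdh15 at 6.37% and 11.4%. Itgb1 was in 19.7% (17.3 to 22.3) and 29.6% (25.1 to 34.3) of the unshared barcodes and in 24.2% (17.7 to 31.7) and 25.3% (16.2 to 36.4) of the 10% table. Cd34 was in 5.70% (4.35 to 7.32) and 3.51% (1.93 to 5.82), and Cxcr4 in 1.3% (0.694 to 2.21) and 0.752% (0.155 to 2.18), so for both no difference was detectable at this depth. Free RNA could not be measured closely, since only 8 unshared barcodes had immune markers. At a median of 8054 UMIs and without thinning, 2 of these had a UMI of Sdc4 and 0 had one of Cdh15, Vcam1, Itga7 or Ncam1. A count of 0 allows a share of up to 37.5%. Without thinning, those 4 members were in 11.5% (Cdh15) to 32.4% (Ncam1) of the unshared shallow barcodes, below that bound. In the deep ones they were in 71.2% (Cdh15) to 87.5% (Ncam1), above it. Over the 16 such barcodes of the whole 90% table there were 8 UMIs of Sdc4, 5 of Itga7, 5 of Ncam1, 2 of Vcam1 and 0 of Cdh15. At equal depth no pair of members was strongly correlated from barcode to barcode. Over 45 pairs the Pearson correlation of thinned counts ran from -0.069 to 0.088 in the 1000 unshared shallow barcodes and from -0.063 to 0.12 in the 399 deep ones. The median thinned count was 0 for every member in both classes, except Sdc4 in shallow barcodes. Counts this sparse keep correlations near 0, so the values do not show that the members vary independently.

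**Figure D3:**
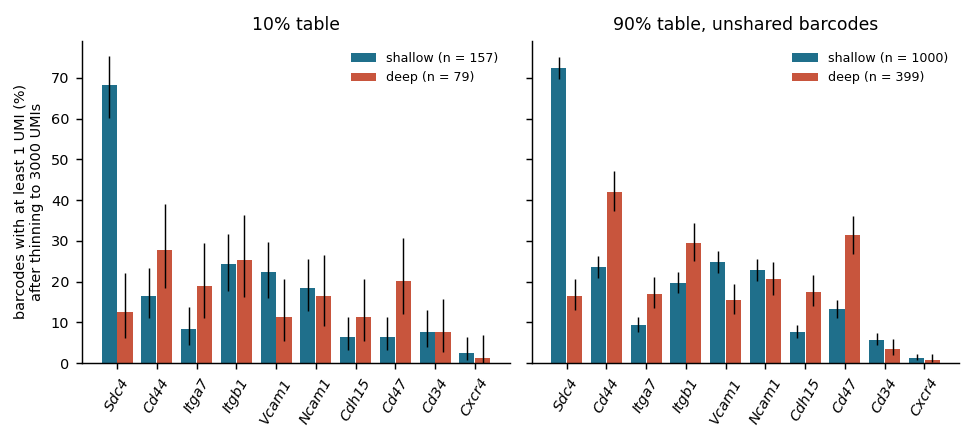
Share of barcodes with at least 1 UMI of each member after thinning every barcode to 3000 UMIs (y axis, %), in the 10% table (left) and the unshared barcodes of the 90% table (right). Bars are shallow and deep classes and lines exact binomial 95% intervals. Sdc4 stands at 72.5% against 16.5% in the unshared barcodes, and Cd44 at 23.6% against 42.1%.

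Across 6 depth strata, 3 in each class, the order of the members changed. In the unshared barcodes Sdc4 led every shallow stratum, and Cd44 led every deep stratum at 204, 196 and 207 CPM. In the 10% table Sdc4 also led the shallow strata, while Itgb1 stood above Cd44 in 2 of the 3 deep ones, at 152 against 137 CPM and 119 against 117 CPM, within the intervals. Cd47 was at 51.2, 50.8 and 78.2 CPM in the shallow strata and at 131, 119 and 115 CPM in the deep ones. Cdh15 was at 29.4, 37.7 and 54.7 CPM in the shallow strata, and its deep values of 60.1, 55.5 and 46.0 CPM were of the same order. The 10% table gave 98.9, 98.9 and 42.2 CPM for the same 3 deep strata, so that its level there was highest in barcodes under 60000 UMIs. Itga7 was at 27.0, 43.5 and 71.9 CPM in the shallow strata of the unshared barcodes and at 70.5, 59.9 and 78.0 CPM in the deep ones.

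**Figure D4:**
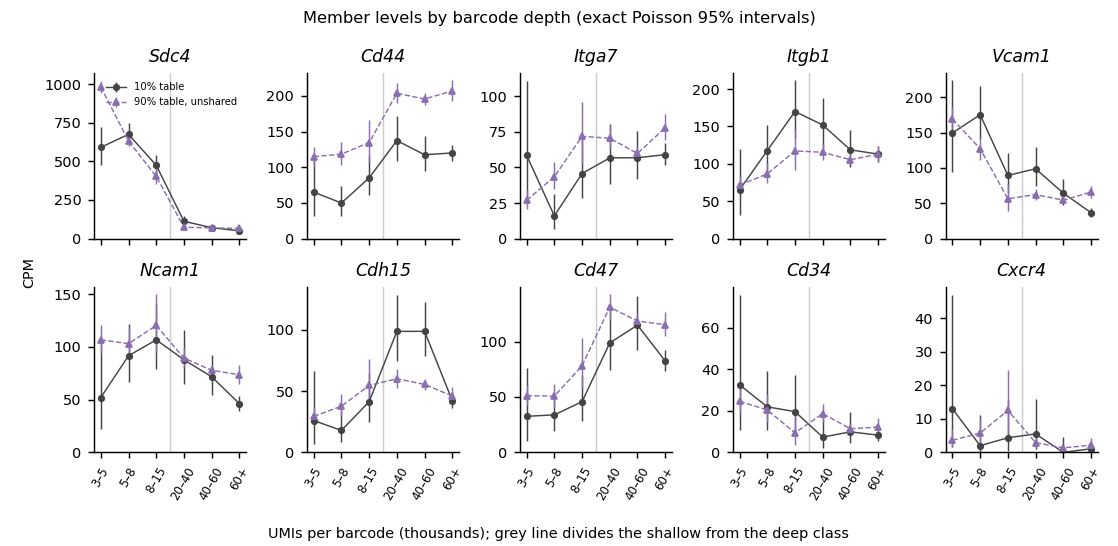
CPM of each member (y axis, linear from 0, 1 panel per gene) in 6 strata of UMIs per barcode (x axis), for the 10% table and the unshared barcodes of the 90% table, with exact Poisson 95% intervals. Sdc4 goes from 984 to 403 CPM within the shallow strata of the unshared barcodes and is at most 73.0 CPM in the deep ones.

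Over the 12 strata of both tables, the genes whose log2 level followed each member most closely were listed among 4332 genes of at least 20 CPM. The strata share cells and the division into classes, so the values only describe likeness. Sdc4 was followed by Btg1, Pnrc1 and Gm17241, at a Pearson r of 0.997, 0.995 and 0.995. Vcam1 was followed by Sfswap, Clock and Ccl2 at about r = 0.95, and Cd47 by Ube2d1, Selenof and Gstp1 at about r = 0.98. The closest to Cd44 was Gm16089 (r = 0.97), to Cdh15 Srp72 (r = 0.976), to Itga7 Dmac1 (r = 0.949), to Ncam1 Wdr26 (r = 0.943) and to Itgb1 Gm5909 (r = 0.894). Cd34 and Cxcr4 were under 20 CPM and were left out.

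Within the shallow class, barcodes with and without a UMI of Myod1, the myogenic determination factor, were compared. Of the unshared shallow barcodes 476 had Myod1 and 524 had none. Sdc4 was at 874 CPM (837 to 912) with and 686 CPM (655 to 719) without it, and Vcam1 at 164 CPM (148 to 181) and 116 CPM (103 to 130). In the 10% table this order was not seen for Sdc4, with 542 CPM (485 to 605) and 626 CPM (560 to 698), and Vcam1 was at 141 CPM (113 to 175) and 131 CPM (101 to 166). Cd47 was lower with Myod1 in the 10% table, at 20.2 CPM (10.4 to 35.3) against 59.5 CPM (40.4 to 84.5), while in the unshared barcodes the intervals of 48.4 CPM (40.0 to 57.9) and 60.1 CPM (51.1 to 70.3) overlapped. Cd34 was lower with Myod1, at 15.3 CPM (10.8 to 21.1) against 26.4 CPM (20.5 to 33.4), with intervals that overlapped slightly. Within the deep class, 53 unshared barcodes had at least 3 UMIs of Myog, the factor that marks differentiating myoblasts, and 294 had none. Cdh15 was at 72.6 CPM (62.5 to 83.9) in the former and 49.1 CPM (45.5 to 53.0) in the latter, Ncam1 at 94.3 CPM (82.7 to 107) and 71.3 CPM (66.9 to 76.0), and Cd47 at 101 CPM (89.0 to 114) and 123 CPM (117 to 129).

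The other genes of these pathways were read from lists of subunits, adaptors, partners and sheddases. Each count is to be read against the 13.0% of all genes called for shallow and the 24.7% called for deep barcodes, and in lists this small none is a result about its list. Of 17 further integrin subunits only 3 had at least 20 UMIs in each table. Itgav, the αv subunit, was at least 2-fold higher in shallow barcodes of both tables, with a ratio of 2.99 in the 10% table and 1.99 in the unshared barcodes, just under the limit. Itga3, a laminin receptor subunit, was higher in deep barcodes, at 10.8 against 0.897 CPM in the 10% table and 10.1 against 0.596 CPM in the unshared ones. Of 14 measured integrin adaptors, 4 were higher in shallow barcodes, against 13.0% of all genes, and 4 in deep barcodes, against 24.7%, and 6 were in neither group. Fermt2 (kindlin-2, which activates integrins) was at 149.8 and 38.4 CPM in shallow and deep barcodes of the 10% table and 116 and 33.8 CPM in the unshared ones. Talin 2 (Tln2) was at 66.8 and 16.6 CPM in the unshared barcodes, while talin 1 (Tln1) was at 21.3 and 44.1 CPM. The actin crosslinker Actn1 was at 23.1 and 96.7 CPM there, and Parvb (β-parvin) at 2.58 and 24.6 CPM. Pxn and Lims1 were the other adaptors higher in shallow barcodes, and Src the other one higher in deep barcodes.

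Among 6 measured cadherins and catenins, Cdh13 (T-cadherin, which lacks a cytoplasmic tail) was at 63.6 CPM in shallow and 9.47 CPM in deep unshared barcodes, and Jup was also higher in shallow ones. N-cadherin, Cdh2, went the other way, at 7.95 and 44.1 CPM. Of 7 further measured proteoglycan receptors 0 were higher in shallow barcodes, against 13.0% of all genes, and 2 in deep barcodes, against 24.7%. Sdc1 was at 7.35 CPM in shallow and 28.2 CPM in deep unshared barcodes and Gpc1 at 11.9 and 63.3 CPM, while Sdc2 was at 42.9 and 52.0 CPM and passed in neither direction.

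Of 14 measured ligands and partners, 5 were higher in shallow barcodes, against 13.0% of all genes, and 4 in deep barcodes, against 24.7%. Fgfr1, a receptor tyrosine kinase that works with syndecan-4, was at 453 CPM in shallow and 31.6 CPM in deep unshared barcodes, and at 476 and 33.7 CPM in the 10% table. The scavenging Cxcl12 receptor Ackr3 was at 74.7 and 17.4 CPM in the unshared barcodes, far above Cxcr4 in both classes. The laminin chains Lama2 and Lamc1 were at 30.6 and 33.8 CPM in shallow and 6.44 and 12.3 CPM in deep barcodes of that set. Osteopontin (Spp1), a ligand of integrins and Cd44, was at 190.4 and 554 CPM, and Hmmr, another hyaluronan receptor that is also a spindle protein, at 0.199 CPM from 1 UMI and 19.3 CPM. Has2 was higher in deep barcodes at 0.397 and 3.897 CPM, with Lamb1 at 2.38 and 11.0 CPM. Among the 5 measured sheddases, Mmp2 was at 45.1 CPM in shallow and 2.44 CPM in deep unshared barcodes and Mmp14 at 19.9 and 4.22 CPM, and Adam10 passed for deep barcodes with the whole 90% table but not with the unshared set, where it was at 8.94 and 16.9 CPM.

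Long reads of the 10% aliquot gave 1382498 UMIs in the 157 shallow and 4628237 in the 79 deep barcodes. Levels summed over isoforms followed the short reads for most members. Sdc4 had 1603 long-read UMIs in shallow and 747 in deep barcodes, against 648 and 304 short-read UMIs in the same barcodes, and a ratio of levels of 7.18 (6.58 to 7.85). The ratio was 2.98 (2.58 to 3.44) for Vcam1 and 2.35 (1.76 to 3.11) for Cd34. Deep over shallow was 2.05 for Cdh15, which now passed 2, and 1.72 for Cd47, which no longer did. Cxcr4 had no isoform in the long-read table.

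Isoform shares were taken within the UMIs of each gene. All 9 members with isoforms had at least 50 long-read UMIs in each class, and 2 of them, Ncam1 and Itga7, had an isoform whose share differed by at least 20 points between the classes. Of 3230 genes with as many UMIs 17.5% did, and the member count is read against that share. The largest difference had a median of 12.5 points over the 9 members and 10.7 points over all genes. Differences are given as shallow minus deep, with Newcombe 95% intervals. Itga7 stood just inside the limit at 20.0 points and Itgb1 just outside it at 19.7 points.

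The short noncoding isoform Ncam1-207 made up 46.2% of the 119 Ncam1 UMIs of shallow barcodes and 15.2% of the 303 of deep barcodes, a difference of 31.0 points (21.3 to 40.7). Its 55 and 46 UMIs came from 20 and 17 barcodes. It has 2 exons, and the second (chr9:49641590-49642258, GRCm38, minus strand) lies within an intron of the 18-exon coding transcript Ncam1-202. As this isoform had the largest share difference among the members, the first 150 bases of its own exon (chr9:49642109-49642258), which Ncam1-202 lacks, are printed in capitals.
Ncam1-207: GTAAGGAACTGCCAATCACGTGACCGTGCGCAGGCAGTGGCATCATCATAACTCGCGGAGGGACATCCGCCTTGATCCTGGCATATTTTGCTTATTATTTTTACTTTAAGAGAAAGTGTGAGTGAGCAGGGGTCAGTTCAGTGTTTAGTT
The coding transcript and 1 unnamed isoform took the opposite direction. Ncam1-202 made up 16.8% in shallow and 29.0% in deep barcodes, a difference of -12.2 points (-20.0 to -3.12), and an unnamed isoform at chr9:49505187-49798925 made up 8.40% and 20.5%. How much of the short-read Ncam1 level above came from Ncam1-207 was not measured, since short reads do not tell isoforms apart. Leaving out this isoform, picked for its higher share in shallow barcodes, could only lower the long-read ratio. The ratio without it was below 1, with an interval that held 1. The other isoforms held 64 and 257 long-read UMIs, or 46.3 CPM (35.7 to 59.1) in shallow and 55.5 CPM (48.9 to 62.7) in deep barcodes, and the ratio of shallow over deep was 0.834 (0.624 to 1.10) against 1.31 (1.05 to 1.63) with all isoforms. Without the barcode with the most Ncam1 UMIs in each class, Ncam1-207 stood at 42.3% and 15.6%.

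Itga7-201 made up 22.2% of the 72 Itga7 UMIs in shallow and 42.3% of the 426 in deep barcodes, a difference of -20.0 points (-29.4 to -8.23), from 16 and 180 UMIs. Itga7 is known for 2 alternative exons in the part of its extracellular domain that binds laminin. Itga7-201 holds the exon at chr10:128941822-128941941 and Itga7-202 the exon at chr10:128941445-128941576 in the same place, both coding. They are shown in capitals between 20 bases of the shared exons on each side, in lower case.
Itga7-201: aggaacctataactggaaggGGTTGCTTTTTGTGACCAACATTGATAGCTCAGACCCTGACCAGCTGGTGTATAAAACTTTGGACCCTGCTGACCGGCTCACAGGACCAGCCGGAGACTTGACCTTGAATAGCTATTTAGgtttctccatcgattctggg
Itga7-202: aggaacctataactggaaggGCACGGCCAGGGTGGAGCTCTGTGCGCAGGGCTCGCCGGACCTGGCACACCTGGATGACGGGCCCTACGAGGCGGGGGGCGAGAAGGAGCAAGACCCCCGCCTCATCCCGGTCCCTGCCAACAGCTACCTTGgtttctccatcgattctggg
The exons have 120 and 132 bases, so both keep the reading frame. Itga7-202 made up 6.94% of shallow and 9.39% of deep UMIs, from 5 and 40 UMIs. The difference was -2.45 points (-7.49 to 6.20), an interval that held 0. An unnamed isoform that starts within the second of these exons, at chr10:128941522-128958279, made up 16.7% of shallow and 6.10% of deep UMIs. Its difference was 10.6 points (3.19 to 21.0), from 12 and 26 UMIs. It holds part of the exon of Itga7-202, so the named transcripts alone do not settle whether use of the 2 exons differed. Exon use over all isoforms was not tested. In shallow barcodes 52.8% of Itga7 UMIs were on isoforms that began within 100 bases of an annotated coding transcript start, against 69.2% in deep barcodes, a difference of -16.5 points (-28.6 to -4.48). Over 3196 genes the median of these shares was 95.5% and 96.0%, and the median difference was 0. The part of isoforms without a known start in the share of Itga7-201 was not tested.

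Itgb1 had its main isoform at chr8:128685793-128733200, with 51.6% of 155 UMIs in shallow and 71.4% of 576 UMIs in deep barcodes, a difference of -19.7 points (-28.3 to -11.1). A form with an earlier 3′ end, chr8:128685793-128732606, made up 18.7% and 12.2%. For Cd47, the isoform at chr16:49855711-49911679 made up 53.8% of 130 and 38.9% of 749 UMIs, a difference of 14.99 points (5.73 to 24.0). Cd47 UMIs that ended at position 49911679 made up 70.0% in shallow and 53.4% in deep barcodes, and those at 49911079, nearer the gene start, 10.0% and 19.6%.

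The other members differed less. Sdc4-201 made up 37.9% of shallow and 36.8% of deep UMIs, a difference of 1.11 points (-3.11 to 5.26), an interval that held 0. The Sdc4 end at position 164425156 was used by 23.3% of shallow and 33.1% of deep UMIs, and the most distal end at 164424247 by 57.2% and 52.7%. Cd34-202 made up 14.9% and 27.4%, a difference of -12.5 points (-22.8 to -1.05), from 13 and 34 UMIs, of which 9 shallow UMIs came from 1 barcode. The most abundant Cd44 isoform, chr2:102811141-102822289, begins far inside the gene on the minus strand and lacks its 5′ part. Whether it is a truncated copy was not tested. It made up 25.8% and 35.3%, a difference of -9.48 points (-15.7 to -2.58), and Cd44-203 made up 18.3% and 13.9%. A 5′ fragment of Cd44 at chr2:102845910-102901495 made up 11.3% in shallow and 2.06% in deep barcodes, a difference of 9.20 points (5.47 to 14.2), and its 24 shallow UMIs came from 7 barcodes. The main isoform of Cdh15 made up 73.7% and 78.3%.

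For Vcam1 the most abundant form, chr3:116110142-116129688, made up 23.2% and 26.5%, a difference of -3.30 points (-9.30 to 2.80). UMIs that ended at 116122280 made up 10.6% in shallow and 8.98% in deep barcodes, a difference of 1.65 points (-2.54 to 5.95). That is the end of Vcam1-203, a 5-exon transcript with a last exon of its own. A short, lipid-anchored form of Vcam1 is known in mouse. The last coding stretch of Vcam1-203 (chr3:116123687-116123793, minus strand) is in capitals, after 20 bases of the exon before.
Vcam1-203: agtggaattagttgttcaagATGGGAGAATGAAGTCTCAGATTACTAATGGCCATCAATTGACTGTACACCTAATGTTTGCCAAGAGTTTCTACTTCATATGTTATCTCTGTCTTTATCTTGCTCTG
A further end at 116123440, within the same last exon, had 7.63% in shallow and 11.4% in deep barcodes, a difference of -3.78 points (-7.91 to 0.403), and the intervals of both Vcam1 ends in this exon held 0. Vcam1 UMIs that ended at position 116110142 made up 57.8% and 68.4%, a difference of -10.7 points (-17.4 to -3.90).

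**Figure D5:**
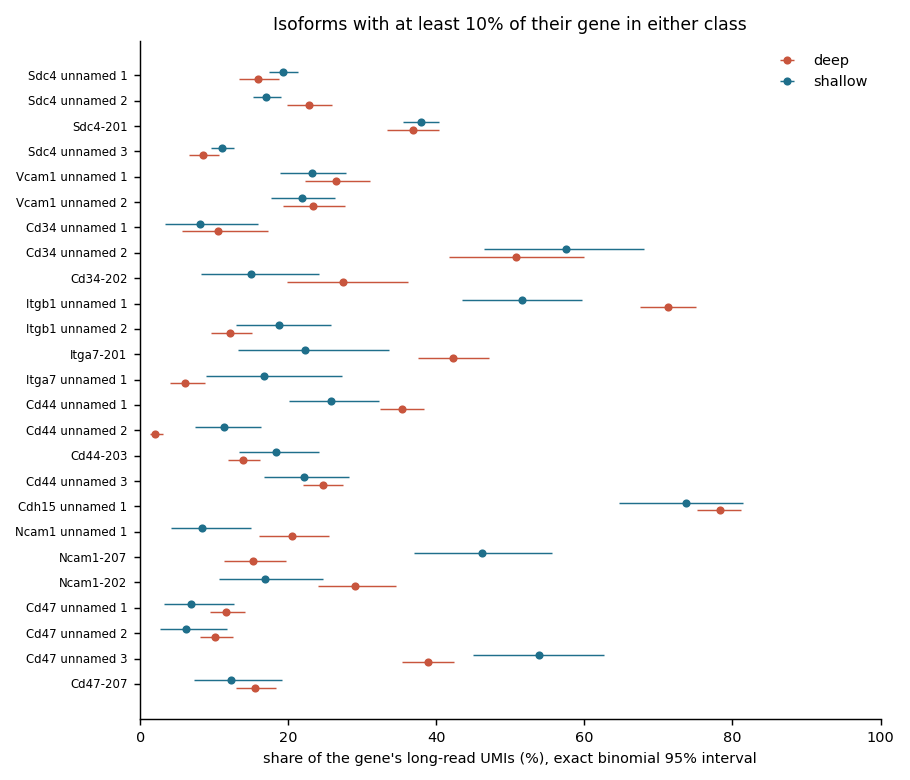
Share of a member's long-read UMIs (x axis, %) on each isoform with at least 10% of its gene in either class of the 10% aliquot, for shallow and deep barcodes with exact binomial 95% intervals. Unnamed isoforms are numbered within their gene. Ncam1-207 stands at 46.2% against 15.2%, and the first unnamed isoform of Itgb1 at 51.6% against 71.4%.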

How the data were processed

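Muscle stem cells of 1 capture were counted in a 10% and a 90% aliquot. Short-read counts came from scPipe for each aliquot, and long-read counts of isoforms from FLAMES for the 10% aliquot, on mm10. The counts were used as the authors deposited them and are raw UMIs that were not normalized. Totals were 6772259 and 39044129 short-read UMIs, and 68065 isoforms were listed. UMIs count 3′ ends, so CPM was not divided by gene length. Symbols, positions and transcripts were taken from Gencode and promoters from RefSeq, on the same assembly.

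CPM of the summed UMIs of a class were given exact Poisson 95% intervals, ratios exact conditional intervals, shares exact binomial (Clopper-Pearson) intervals and share differences Newcombe intervals (scipy 1.17.1). A gene was called where the ratio was at least 2 in both tables among genes of at least 20 UMIs over both classes in each. A sum of 0 was set to 3 counts, so that its fold is a bound. Isoform shares needed 50 UMIs in each class. No doublet caller was run, and barcodes over 2 times the median depth of the deep class were left out in an alternative. No model or p-value was used, since 1 capture gives no replicate.

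The members, lists and classes were chosen with earlier results of these data known. Named genes were the 10 members, up to 4 genes per list and direction with the most UMIs among those called, the 3 genes most like each member over 12 strata on the log2(CPM + 10) scale, and isoforms of at least 10% in either class. Further listed genes in the text (Sdc2, the talin pair, Hmmr and Adam10 among them) were named after their values were seen. The scripts were tested on simulated data.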

Additional observations from a re-analysis of the deposited data

How the results depend on the processing

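Under 10 other settings and 1 chosen after seeing the data (the 90% table without barcodes of the 10% list), Sdc4 and Vcam1 had 21 ratios of shallow over deep each, of which 3 restate the reported values because the setting left them as they were. The other 18 were above 1, at 1.54 to 12.1 and 1.85 to 3.97. Cd34 ranged from 1.09 to 2.82, Cxcr4 from 1.55 to 5.02, and Cd47 from 0.335 to 1.43. The comparison with cycling barcodes of matched depth changed most. With barcodes of 3000 to 15000 UMIs and at least 2 cell cycle UMIs in place of the deep class, 1 member (Cd34, against 1 and 5 UMIs) was at least 2-fold higher in shallow barcodes of both tables and 0 in the others, beside 309 and 400 of 4572 genes, and Cd47 reversed in the 10% table (ratio 1.43, from 3 UMIs). Cd44 also passed 1 there (1.23, from 6 UMIs), and Ncam1 went from 1.46 to 0.849 in the 90% table. These classes hold 14 and 71 barcodes, and the cause was not tested. Thinning to 3000 UMIs left 3306 genes with enough UMIs, 548 and 713 of them called. No filter on genes gave 2796 of 20000 genes (14%) higher in shallow barcodes, with Cxcr4 as a further member. Leaving out Ncam1-207, a setting chosen after seeing the data, lowered the long-read ratio of Ncam1 to 0.834 (0.624 to 1.10), an interval that held 1. Long reads alone called Sdc4, Vcam1 and Cd34, beside 19.9% of 9588 genes, and Cdh15 in place of Cd47, beside 29.3%. Scaling by the median of ratios moved all genes by 0.11 and 0.024 on the log2 scale and left the called members as they were.

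For isoform shares, a limit of 10 points gave 5 members and 1746 genes and a limit of 30 points 1 and 184, or 54.1% and 5.7% of 3230 genes. Reference-named isoforms alone gave 1 and 63 (11.9%). At least 20 UMIs per class gave 2 members and 1642 genes (29.9%), and at least 100 UMIs gave 1 member and 194 genes (10.8%). The mean over barcodes gave 1 member and 408 genes, or 12.6% of 3230. Leaving out the largest barcode of each gene gave 3 members and 451 of 2860 genes, or 15.8%. Ncam1 was called under all of these. Itga7 was not called with a higher UMI limit of the deep class, where Itgb1 was, at 30 points, with the mean over barcodes or, in a setting chosen after seeing the data, without the largest barcode of each gene, where Cd34 and Itgb1 were called beside Ncam1. With reference-named isoforms alone 1 member could be tested, and with 100 UMIs 7. No paired analysis was possible because the aliquots come from 1 capture and carry no replicate numbers.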

Other observations

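Barcodes between the classes, at more than 15000 and fewer than 20000 UMIs, entered no comparison. There were 12 in the 10% table and 42 in the 90% table. Sdc4 stood at 216 CPM (157 to 289) and 191 CPM (161 to 226) in them, between the levels of the classes in both tables. Cdh15 was at 38.4 CPM (16.6 to 75.6) in the 10% table and 156 CPM (129 to 188) in the 90% table, from 8 and 112 UMIs, and Cd47 at 76.8 CPM (43.9 to 125) and 154 CPM (126 to 185). Itgb1 was at 168 CPM (117 to 234) and 138 CPM (112 to 168).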
